A study of Mus musculus with 8 samples.

Results

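*Isl1* encodes the LIM homeodomain factor of sympathetic neurons, and the genes described with it encode the proteins that share or bind its LIM domains. The set was chosen by symbol and held 8 genes: the LIM homeodomain genes *Isl1* and *Isl2*, the LIM-only genes *Lmo1*, *Lmo2*, *Lmo3*, and *Lmo4*, and the LIM domain-binding genes *Ldb1* and *Ldb2*. All 8 were among the 13506 genes of the E11.5 table, and 7 were among the 13413 genes of the E14.5 table. *Isl2* was missing from the later table and was therefore below its limit, an FPKM of 1 in both genotypes.

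Gene expression was measured by RNA-seq of dissected mouse sympathetic ganglia. At E11.5, *Isl1* CKO ganglia (*Wnt1-Cre;Isl1 f/f*, given as Isl1-/- in the labels) were set against control ganglia (*Wnt1-Cre;Isl1 +/+*, given as wild type), both with the *Rosa26-tdTomato* reporter, so that both genotypes carried the Cre. Non-fluorescent tissue was cleaned away at that stage. At E14.5, *Isl1* hypomorphic ganglia (*Isl1 f-neo/f-neo*, given as Isl1 mutation) were set against wildtype ganglia, and the sources name no Cre for either. Each group had 2 libraries, each from ganglia pooled from about 10 embryos by the labels, which is the low end of the range in the study's methods. Wnt1-Cre recombines in the neural crest lineage, so blood, vessel and other cells that do not come from the crest kept the floxed allele. The hypomorphic allele is not restricted to a lineage.

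The deposited tables give FPKM, a count of fragments scaled by transcript length and by the number of mapped fragments. The authors made 1 value per genotype from its 2 libraries. Neither the number of reads nor the spread between libraries is known. From these values no difference below could be checked between replicates and no test between genotypes could be made. Every level is the authors' pooled value. The study's own p-values, and its qPCR of some of these genes, were not used here. Changes are log2 ratios of FPKM + 0.1, mutant over control, and a change of at least 1.5-fold (0.58 on the log2 scale) was counted. Because of the added constant, changes at low levels come out too small. In E11.5 CKO ganglia, 12.9% of all genes were lower by this measure and 18.9% were higher. These shares were 22.5% and 12.2% when FPKM was rescaled without erythroid and mitochondrial genes, and 6.89% and 31.2% after centring on sympathetic neuron markers. All listed genes summed to 476289 FPKM in control and to 617263 in CKO ganglia. The rescaling made the sums of the remaining genes equal, which lowered the CKO values. Its shift is therefore not the one that a larger erythroid share alone would give. The erythroid genes took 2.29% of the summed FPKM in control and 11.2% in CKO ganglia. *Hbb-y* held 7552 of their 10884 FPKM in control ganglia but is listed at 0 in CKO ganglia. This can be a failed estimate, so the CKO share may be too low. In E14.5 hypomorphic ganglia the shares were 2.12% and 2.89%. Over all genes the log2 ratio had a median of 0.05 at E11.5 and of 0.00 at E14.5. At E11.5 the median was -0.18 after the rescaling and 0.31 after the centring, so changes under those scalings are read against these values.

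LIM homeodomain proteins bind DNA through a homeodomain and bind cofactors through a pair of LIM domains. LDB proteins dimerize and hold the LIM domains of several partners, which bridges factors on one or on distant DNA sites. LMO proteins consist of little more than LIM domains. They bind the same LDB surface as LIM homeodomain proteins without touching DNA themselves, and can compete with them or join GATA and basic helix-loop-helix (bHLH) factors to LDB. *LMO1* and *LMO3* are also known as oncogenes of neuroblastoma, the childhood tumor of the sympathetic lineage.

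*Lmo1* had the log2 ratio farthest from 0 among the listed genes of the set at both stages, and the study tested a site in its first intron for ISL1 occupancy. The sequence is shown because it places a candidate ISL1 site within the gene. In mm9, *Lmo1* lies on the minus strand of chromosome 7, from 116282086 to 116313822, with 4 exons in its coding transcript and a first intron of 26313 bases. The study's primers for the ISL1 site each matched chromosome 7 at 1 place and bound a stretch of 196 bases at chr7:116289285-116289480. A second primer pair, which the study used as its control, bound 96 bases at chr7:116289577-116289672. Both stretches lie in intron 1 of 3, the ISL1 site between 24342 and 24537 bases downstream of the annotated start. They are printed below on the minus strand, 5′ to 3′, and capitals mark 2 kinds of short words. CTAATG and CTAATT were searched as words of the ISL1 homeodomain, and AGATAA or AGATAG as well as TGATAA or TGATAG served as words of GATA factors, on both strands.

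ISL1 site: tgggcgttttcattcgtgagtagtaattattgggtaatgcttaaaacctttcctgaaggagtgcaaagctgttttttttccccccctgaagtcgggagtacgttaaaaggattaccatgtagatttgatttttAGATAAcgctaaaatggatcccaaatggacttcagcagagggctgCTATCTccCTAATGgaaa
Neighbouring stretch: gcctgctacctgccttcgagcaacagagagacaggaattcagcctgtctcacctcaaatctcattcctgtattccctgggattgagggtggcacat

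The ISL1 site held CTAATG once, from 116289289 to 116289294. AGATAA was found from 116289342 to 116289347, and AGATAG lay on the opposite strand next to the ISL1 word, from 116289297 to 116289302. None of the words was found in the neighbouring stretch, which is shorter. The stretches are 96 bases apart. This is closer than the methods describe for control primers, and most of the neighbouring stretch lies inside the ISL1-bound region as published. It is therefore no example of unbound sequence. Of 32851 mouse promoters from RefSeq (GRCm38.p6), 11.1% held an ISL1 word in their first 196 bases, 22.8% a GATA word, and 3.28% both. The words consist mostly of A and T. The ISL1 site was 40.8% G and C, and the neighbouring stretch 52.1%. All promoters matched to genes of the set had more G and C than the ISL1 site, those of *Lmo1* 66.3% and 74.3%. The promoter shares are therefore not a matched background for this intron, and introns of similar composition were not searched. A match of letters is a description of the sequence and not of binding, and the values of the occupancy assay were not used here. Promoters were matched for 6 of the 8 genes, not for *Lmo2* and *Ldb2*. In the whole window of 300 bases, 14.7% of promoters held an ISL1 word and 29.8% a GATA word. The promoter of *Isl1* held 2 GATA words and 0 ISL1 words, and those of *Lmo1*, *Isl2*, *Lmo3*, and *Lmo4* held neither kind. Of 3 promoters of *Ldb1*, 1 held 1 ISL1 word and 2 GATA words, 1 held 1 ISL1 word alone, and the other held neither.

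**Figure D1:**
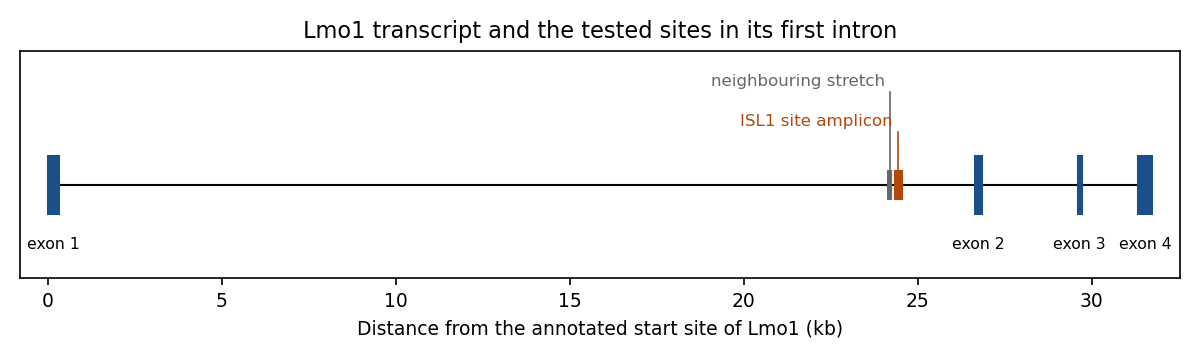
Map of the coding transcript of *Lmo1* to scale, in kb from the annotated start site, with exons as blue boxes. The ISL1 site of 196 bases (orange) and the neighbouring stretch of 96 bases (grey) lie in the first intron, closer to exon 2 than to exon 1.

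*Isl1* is the targeted gene and its level checks the labels. The gene lies on chromosome 13, between 117088478 and 117099896 in mm9. At E11.5 control ganglia had 133 FPKM of *Isl1* and CKO ganglia 40.0. At E14.5 wildtype ganglia had 162 FPKM and hypomorphic ganglia 83.1. The mutant value was the lower one at both stages, as the labels would have it. In the CKO ganglia 30.2% of the control level was left, a log2 ratio of -1.73, and in the hypomorphic ganglia 51.3%, a log2 ratio of -0.96. Counted from the lowest log2 ratio, *Isl1* was at rank 204 of 13506 genes at E11.5 and at rank 112 of 13413 at E14.5. A value over the whole gene also counts fragments from exons that recombination leaves in place, and cells that kept the allele, and these cannot be told apart from intact transcripts of crest cells. *Isl1* ranked high in each column. Only 555 genes had a higher FPKM in E11.5 control ganglia and 374 in E14.5 wildtype ganglia, against 2237 in CKO and 933 in hypomorphic ganglia.

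*Isl2*, the closest relative of *Isl1* and a factor of motor and sensory neurons, was at the edge of detection. It was at 0.373 FPKM in control and at 1.2 in CKO ganglia at E11.5 (chromosome 9, from 55386479 to 55393987), and was not listed at E14.5. Its log2 ratio of 1.46 rests on an absolute difference of 0.827 FPKM and was 0.68 with a pseudocount of 1. Markers of motor neurons (*Mnx1*, *Lhx3*, *Lhx4*, *Olig2*, *Nkx6-1*) were listed at neither stage. Of 8 sensory neuron genes, 4 were listed at E11.5, with a summed FPKM of 11.7 in control and 13.9 in CKO ganglia. *Neurog2*, which directs sensory neurogenesis, had 0.212 and 2.70 FPKM, and *Pou4f1*, a sensory neuron factor, 0.676 and 1.57. Both were listed only through the CKO column, so their direction was fixed by the limit of the table. *Neurog1*, *Runx1*, *Runx3*, and *Avil* were not listed. *Prrxl1*, the most abundant gene of the list, was at 10.1 FPKM in control and at 7.98 in CKO ganglia. The part of such cells in the *Isl2* value was not tested.

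**Figure D2:**
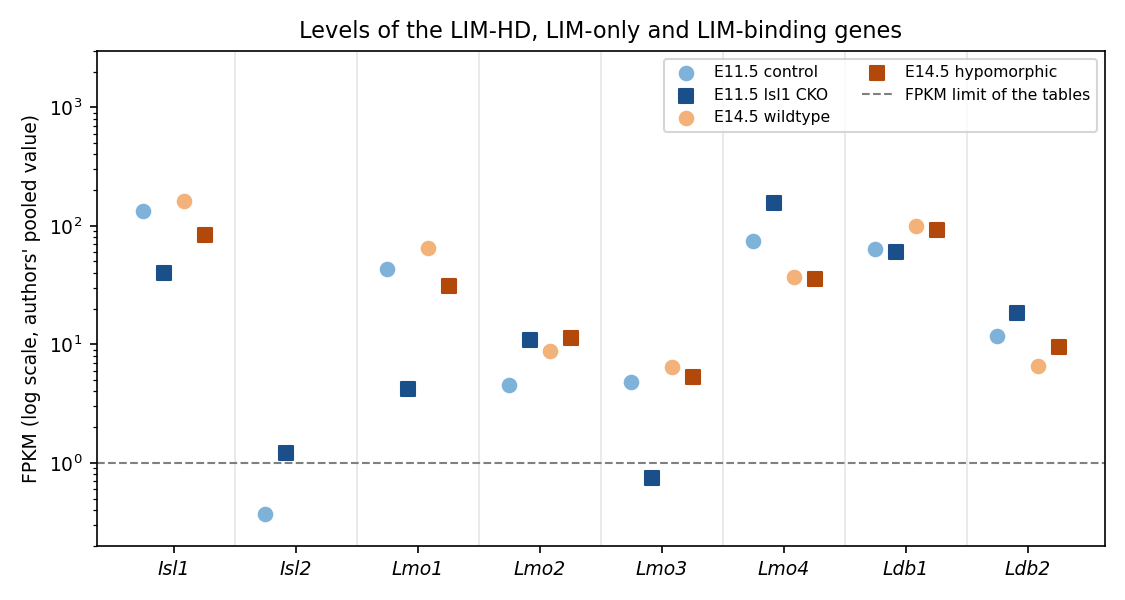
FPKM of the 8 genes on a log axis, with 1 authors' pooled value per genotype and stage (circles for control or wildtype, squares for mutant ganglia); the dashed line is the limit of 1 FPKM. *Isl1* and *Lmo1* are lower in the mutant at both stages, *Lmo4* is higher in the mutant at E11.5 only (36.9 and 35.7 FPKM at E14.5), and *Isl2* has no value at E14.5. The 2 tables were normalized separately.

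Of the 8 genes at E11.5, *Isl1*, *Lmo1*, and *Lmo3* were lower in CKO ganglia by the 1.5-fold measure, and *Isl2*, *Lmo2*, *Lmo4*, and *Ldb2* were higher. The counts of 3 lower and 4 higher genes stand beside 12.9% and 18.9% of all genes. A gene under 1 FPKM in one genotype was listed only through the other, so its direction was fixed by the limit of the table. This holds for *Isl2* among the 4 and for *Lmo3* among the 3, and over all genes for 625 of the 2552 higher and 275 of the 1746 lower ones. The median log2 ratio of the 8 was 0.28, and *Ldb1* alone stayed within the threshold. At E14.5, 2 of 7 listed genes were at least 1.5-fold lower, beside 2.12% of all genes, and 0 were higher, beside 2.89%. Both of the lower ones, *Isl1* and *Lmo1*, were also lower at E11.5. Of 12727 genes with a value in both tables, 68 (0.534%) were at least 1.5-fold lower at both stages. The alleles as well as the ages differ between the tables, and the difference between stages was not tested.

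The LIM-only genes differed in direction in CKO ganglia, with *Lmo1* and *Lmo3* lower and *Lmo2* and *Lmo4* higher. The direction of *Lmo3* was fixed by the limit of the table. *Lmo1* had 43.2 FPKM in control ganglia and 4.23 in CKO ganglia, so that 9.78% of the control level was left. Its log2 ratio was -3.32, lower than that of *Isl1* itself, and 0.822% of all genes had a lower one. At E14.5 *Lmo1* was at 65.6 FPKM in wildtype and at 30.9 in hypomorphic ganglia (47.1% left, log2 ratio -1.08), and 0.664% of genes were lower still. At this stage *Lmo1* and *Isl1* were left at similar shares, 47.1% and 51.3%, whereas at E11.5 the share left was 9.78% for *Lmo1* and 30.2% for *Isl1*. FPKM of *Lmo1* per FPKM of *Isl1*, a ratio within a column that does not depend on scaling, was 0.326 in control and 0.106 in CKO ganglia, and 0.405 in wildtype and 0.372 in hypomorphic ganglia. The *Isl1* value of CKO ganglia can hold fragments of exons left by recombination and of cells that kept the allele. These values therefore do not set *Lmo1* against intact *Isl1* transcripts, and the alleles differ between the stages.

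*Lmo3* (chromosome 6, from 138311439 to 138530489), the LIM-only gene known to work with neuronal bHLH factors, had a lower FPKM than *Lmo1* in every column. It was at 4.79 FPKM in control and at 0.745 in CKO ganglia at E11.5, a log2 ratio of -2.53 that was -1.73 with a pseudocount of 1. At E14.5 it was at 6.41 FPKM in wildtype and at 5.31 in hypomorphic ganglia, a log2 ratio of -0.27 that did not reach the threshold. *Lmo3* therefore passed the threshold at E11.5 and not at E14.5, but at E11.5 it was listed only through the control column and could not have been counted as higher.

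*Lmo4* (chromosome 3, from 143851494 to 143868184), the most widely expressed LIM-only gene, which also binds DEAF1 and the DNA repair factor CtIP, had the opposite pattern. It was at 74.2 FPKM in control and at 155 in CKO ganglia, a log2 ratio of 1.06, and 7.58% of genes had a higher one. In CKO ganglia only 509 genes had a higher FPKM, against 1085 in control ganglia. At E14.5 *Lmo4* was at 36.9 FPKM in wildtype and at 35.7 in hypomorphic ganglia, a log2 ratio of -0.05 that ranged from -0.05 to 0.01 with the scaling. Beside the higher value of *Lmo4* at E11.5, 7 of 8 neural crest and glial genes were at least 1.5-fold higher in CKO ganglia, with a summed FPKM of 177 in control and 387 in CKO ganglia. So were 5 of 8 mesenchyme genes, with sums of 579 and 1008, beside 18.9% of all genes. The median log2 ratio of the mesenchyme genes was 0.77, and 0.53, under the threshold, after the rescaling without erythroid and mitochondrial genes. At E14.5, 0 genes of either list passed the threshold in either direction. The part of these cells in the *Lmo4* value was not tested. In tissue of this kind, fewer cells of a type and less RNA per cell cannot be told apart.

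*Lmo2* (chromosome 2, from 103798143 to 103822035) is known as a factor of blood and vessel cells, in which its protein joins GATA and TAL factors to LDB1. It was at 4.51 FPKM in control and at 10.8 in CKO ganglia at E11.5, and 8.75 in wildtype and 11.3 in hypomorphic ganglia at E14.5. The log2 ratios were 1.24 and 0.37, of which the first passed the threshold. Erythroid genes moved with it at E11.5, when 18.9% of all genes were at least 1.5-fold higher. Of 10 listed genes of this list, 9 were at least 1.5-fold higher in CKO ganglia, among them *Hba-x*, an embryonic globin gene (2572 and 53627 FPKM), *Alas2*, which encodes the first enzyme of heme synthesis in red cells (29.0 and 859), and *Klf1*, an erythroid transcription factor (1.99 and 18.5). *Hbb-y* alone went the other way, with 7552 FPKM in control ganglia, and is listed at 0 in CKO ganglia, which can be a failed estimate. At E14.5, 11 of 12 listed erythroid genes had a higher value in hypomorphic ganglia, and the median log2 ratio was 0.44. The threshold was passed by 3 as higher, beside 2.89% of all genes, and by 1 as lower. Of these, *Hba-a2* (higher) and *Hba-a1* (lower) were under 1 FPKM in 1 genotype. All 10 endothelial genes had a higher value in CKO ganglia, but only *Tek* and *Flt1* passed the threshold, beside 18.9% of all genes. The sum of the 10 was 79.1 FPKM in control and 105 in CKO ganglia. At E14.5 the endothelial sum was 105 and 148 FPKM, with a median log2 ratio of 0.47. At that stage 1 gene of 10 passed the threshold as higher, beside 2.89% of all genes. Per FPKM of this endothelial sum, *Lmo2* was at 0.0570 in control, 0.103 in CKO, 0.0833 in wildtype and 0.0767 in hypomorphic ganglia. The part of blood and vessel cells in the *Lmo2* values was not tested.

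**Figure D3:**
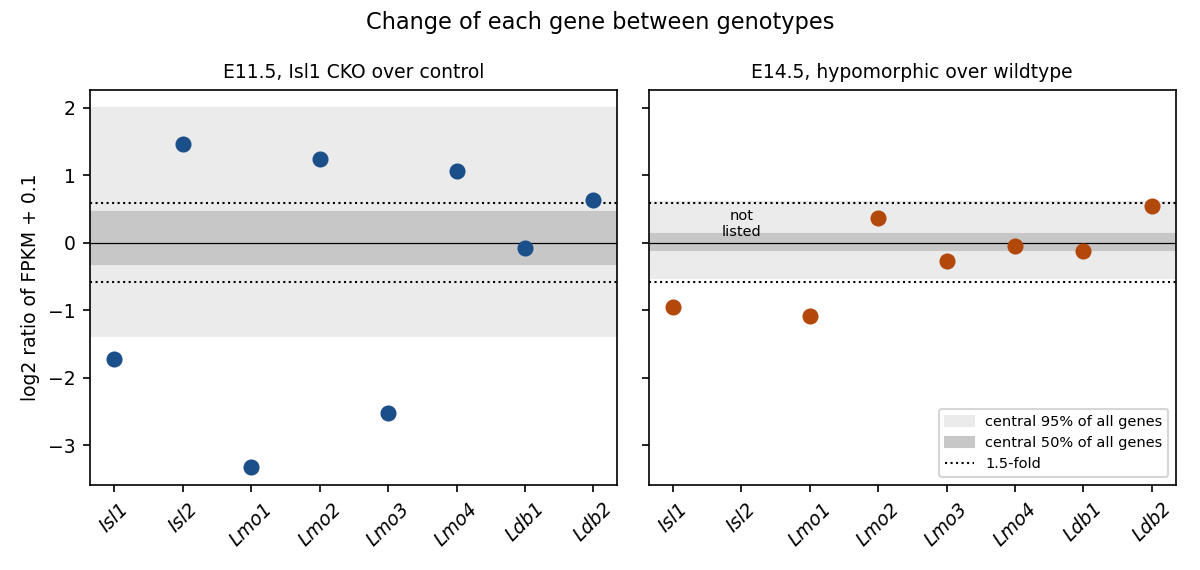
Log2 ratio of FPKM + 0.1 between genotypes for the 8 genes at each stage, with bands for the central 50% and 95% of all genes and dotted lines at 1.5-fold. *Isl1*, *Lmo1*, and *Lmo3* lie below the central 95% of genes (-1.38 to 1.99) at E11.5, and *Isl1* and *Lmo1* below it (-0.53 to 0.61) at E14.5.

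*Ldb1* stayed within the threshold at both stages, and *Ldb2* passed it at E11.5. *Ldb1* (chromosome 19, from 46107083 to 46119704), which encodes the main scaffold, was at 63.5 FPKM in control and at 60.0 in CKO ganglia, and 100.4 in wildtype and 91.7 in hypomorphic ganglia. Its log2 ratios were -0.08 and -0.13. At E11.5 the sign depended on the scaling, from -0.32 to 0.18. *Ldb2* (chromosome 5, from 44863372 to 45190946) encodes the second scaffold. It was less abundant and higher in both mutants, with 11.7 FPKM in control and 18.2 in CKO ganglia (log2 ratio 0.63), and 6.50 in wildtype and 9.55 in hypomorphic ganglia (0.55). At E11.5 its log2 ratio was 0.40 after the rescaling without erythroid and mitochondrial genes, which is under the threshold. The E14.5 value was just short of the 1.5-fold threshold, yet 3.40% of all genes had a higher log2 ratio at that stage, against 17.3% at E11.5. Per FPKM of the endothelial sum, *Ldb2* was at 0.0619 in wildtype and 0.0648 in hypomorphic ganglia, and at 0.148 in control and 0.174 in CKO ganglia. The median log2 ratio of the endothelial genes was 0.47 at both stages, and their part in the *Ldb2* values was not tested.

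FPKM is scaled by transcript length, so the genes of a column can be added and their shares compared between genotypes whatever the scaling. *Lmo4* made up 58.5% of the LMO sum in E11.5 control ganglia and *Lmo1* 34.1%. In CKO ganglia *Lmo4* reached 90.8%, while *Lmo1* was at 2.47% and *Lmo3* at 0.436%. *Lmo2* went from 3.56% to 6.33%. In E14.5 wildtype ganglia *Lmo1* was the leading LIM-only gene with 55.7%, ahead of *Lmo4* with 31.4%. In hypomorphic ganglia the order was reversed, with *Lmo4* at 42.9% and *Lmo1* at 37.1%, although the FPKM of *Lmo4* itself was nearly the same as in wildtype ganglia. FPKM of *Lmo4* per FPKM of *Lmo1* was 1.72 in control, 36.7 in CKO, 0.563 in wildtype and 1.16 in hypomorphic ganglia. In both comparisons the mutant ratio was the higher one.

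At E11.5 the LMO sum shifted less than the share of *Lmo1* in it. Sums, unlike shares, depend on the scaling between columns. The LMO genes summed to 127 FPKM in control and to 171 in CKO ganglia, and 118 in wildtype and 83.2 in hypomorphic ganglia. The LDB sum was 75.2 and 78.2 FPKM at E11.5 and 107 and 101 at E14.5. FPKM of LIM-only genes per FPKM of LDB genes was 1.69 in control and 2.18 in CKO ganglia, and 1.1 in wildtype and 0.822 in hypomorphic ganglia, so that this ratio went up in one mutant and down in the other. For *Isl1* per LDB it was 1.76 in control, 0.511 in CKO, 1.52 in wildtype and 0.821 in hypomorphic ganglia. *Isl1* exceeded the LMO sum slightly in control ganglia (1.05 per FPKM of LMO) and was at 0.234 in CKO ganglia. At E14.5 the values were 1.38 in wildtype and 0.999 in hypomorphic ganglia. *Ldb1* took 84.4% of the LDB sum in control, 76.7% in CKO, 93.9% in wildtype and 90.6% in hypomorphic ganglia.

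**Figure D4:**
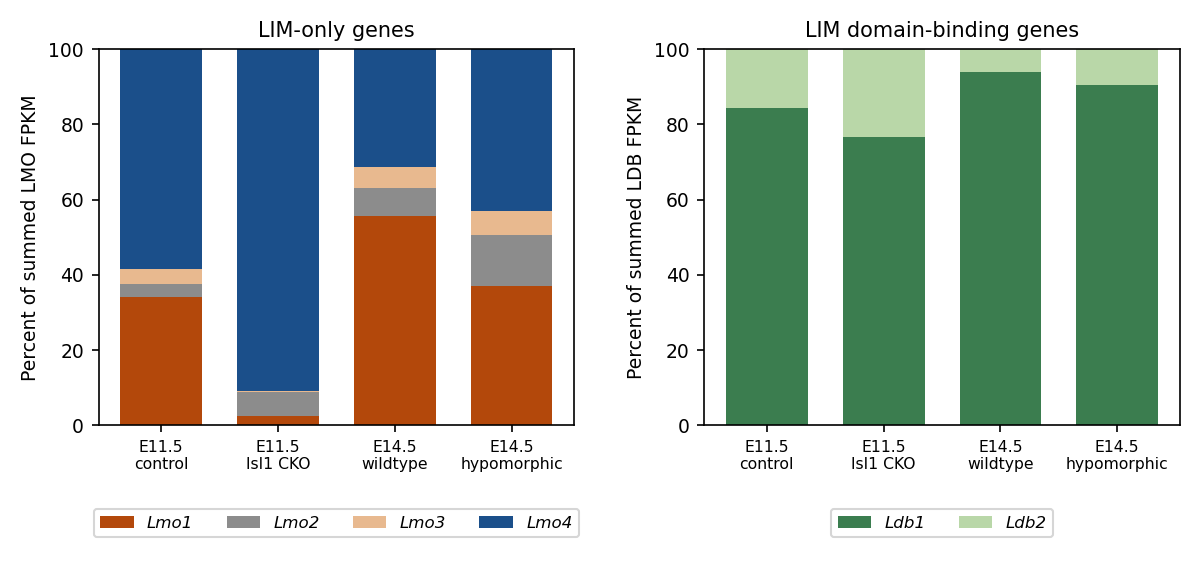
Share of each gene in the summed FPKM of the 4 LIM-only genes (left) and of the 2 LIM domain-binding genes (right), in percent, for 1 pooled value per genotype and stage. *Lmo4* takes 90.8% of the LIM-only sum in CKO ganglia, and *Lmo1* 2.47%, against 58.5% and 34.1% in controls.

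Levels between stages are set side by side only, since the tables were normalized separately and the control embryos differ in genotype. In E11.5 control ganglia the order by FPKM was *Isl1*, *Lmo4*, *Ldb1*, *Lmo1*, *Ldb2*, *Lmo3*, *Lmo2*, and *Isl2*. In E14.5 wildtype ganglia it was *Isl1*, *Ldb1*, *Lmo1*, *Lmo4*, *Lmo2*, *Ldb2*, and *Lmo3*. Whether neighbours in these orders differ beyond the spread between libraries is not known. *Isl1* led in both, and *Lmo1* had a higher FPKM than 85.3% of the listed genes at E11.5 and than 90.5% at E14.5. *Lmo4* was above 92.0% and 80.5%, and *Ldb1* above 90.3% and 94.6%. *Lmo2*, *Lmo3*, and *Isl2* were in the lower part of the E11.5 column, above 26.7%, 27.7%, and 1.34% of genes.

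The ganglia held the defining genes of sympathetic neurons in all 4 columns. *Dbh*, which encodes the enzyme that makes noradrenaline, was the most abundant of 8 such genes, with 543 FPKM in control, 594 in CKO, 608 in wildtype and 568 in hypomorphic ganglia. The median log2 ratio of the 8 was -0.26 at E11.5 and -0.06 at E14.5. *Hand2*, a transcription factor gene of the lineage, was at least 1.5-fold lower at E11.5 (298 and 193 FPKM), and *Phox2a*, another, at E14.5 (553 and 360). Relative to the geometric mean of these 8 genes, *Isl1* was at 0.774 in control and 0.272 in CKO ganglia, and *Lmo1* at 0.252 and 0.0288. At E14.5 *Isl1* was at 0.544 in wildtype and 0.307 in hypomorphic ganglia, and *Lmo1* at 0.220 and 0.114. Both genes were thus lower in the mutants on this scale as well, while *Ldb1* was at 0.370 and 0.408 at E11.5 and at 0.337 and 0.339 at E14.5.

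The partners of these proteins were compared as 4 lists with 29 genes in all. At E11.5, 21 were listed, of which 4 were lower and 8 were higher by the 1.5-fold measure, beside 12.9% and 18.9% of all genes. The median log2 ratio of the 21 was 0.16, beside 0.05 over all genes. At E14.5, 18 were listed, of which 1 was lower and 3 were higher, beside 2.12% and 2.89% of all genes. The median of the 18 was 0.09, beside 0.00 over all genes. Of the higher genes, 5 of 8 at E11.5 and 2 of 3 at E14.5 were under 1 FPKM without the mutation and were listed only through the mutant column, so they could not have been counted as lower. Of the others, 3 were higher at E11.5 and 1 at E14.5. In addition, 4 of the 8 higher genes at E11.5 were left when genes under 5 FPKM in both genotypes were left out.

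The other LIM homeodomain genes were close to or under the limit of the tables. Of 10, 3 were listed at E11.5 and 1 at E14.5, and all of these were under 1 FPKM without the mutation, so that only a higher mutant value could list them. *Lmx1a*, a factor of the dorsal neural tube, was at 0.878 FPKM in control and at 3.68 in CKO ganglia. *Lhx6*, a factor of forebrain interneurons, had 0.700 in wildtype and 1.27 in hypomorphic ganglia. *Lhx3*, the partner of ISL1 in motor neurons, was not listed. None of these reached 5 FPKM, so *Isl1* had the highest FPKM of the LIM homeodomain genes compared in every column.

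The cofactors that stabilize or degrade LDB complexes did not pass the threshold. *Ssbp3*, which encodes a single-stranded DNA-binding protein that protects LDB1, was the most abundant of the 4, with 77.2 FPKM in control ganglia, 94.6 in CKO ganglia, 114 in wildtype ganglia and 108 in hypomorphic ganglia. *Rlim*, which encodes a ubiquitin ligase of LDB proteins, had 29.1 and 23.0 FPKM at E11.5 and 17.8 and 19.5 at E14.5. The log2 ratios of the 4 cofactors lay between -0.34 and 0.52 at E11.5 and between -0.08 and 0.35 at E14.5.

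Among 12 GATA and bHLH partners of LMO proteins, 11 were listed at E11.5. In CKO ganglia 2 were lower and 5 were higher, beside 12.9% and 18.9% of all genes. Of the 5, *Gata1* and *Nhlh1* were listed only through the CKO column, so they could not have been counted as lower. *Gata2* and *Gata3*, which are required in sympathetic neurons, had 42.8 and 79.1 FPKM in control and 3.22 and 32.4 in CKO ganglia. At E14.5 they had 129 and 91.8 FPKM in wildtype and 133 and 78.1 in hypomorphic ganglia. *Gata1*, *Tal1*, and *Lyl1*, which work with LMO2 in blood cells, had the opposite change at E11.5, with 0.923, 2.36, and 1.37 FPKM in control and 9.68, 19.0, and 8.56 in CKO ganglia. *Tal1* and *Lyl1* moved in the direction of *Lmo2* and of the erythroid genes above, and for *Gata1* no other direction could have been counted. *Nhlh2*, a neuronal bHLH gene, was higher in CKO ganglia (4.85 and 7.82 FPKM) but lower in hypomorphic ganglia (3.40 and 1.80, log2 ratio -0.88), where it was the 1 partner gene counted as lower. The ubiquitous E protein genes *Tcf3*, *Tcf4*, and *Tcf12* stayed within the threshold at both stages, with log2 ratios from -0.20 to 0.21.

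Of the 3 genes of LMO4 partners, *Brca1* and *Rbbp8* were lower in CKO ganglia, where *Lmo4* was higher and 12.9% of all genes were lower. A link of these changes to *Lmo4* was not tested. *Brca1*, a DNA repair gene, was at 12.3 FPKM in control and at 4.40 in CKO ganglia, and 5.91 in wildtype and 9.17 in hypomorphic ganglia. At E14.5 it passed the threshold as higher (log2 ratio 0.63), while *Lmo4* stayed within it. *Rbbp8*, which encodes CtIP, had 13.7 and 7.62 FPKM at E11.5 and 7.09 and 9.61 at E14.5, where it did not pass the threshold. *Deaf1*, which encodes a transcription factor, stayed within it, with 25.9 and 28.9 FPKM at E11.5 and 41.0 and 38.1 at E14.5.

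**Figure D5:**
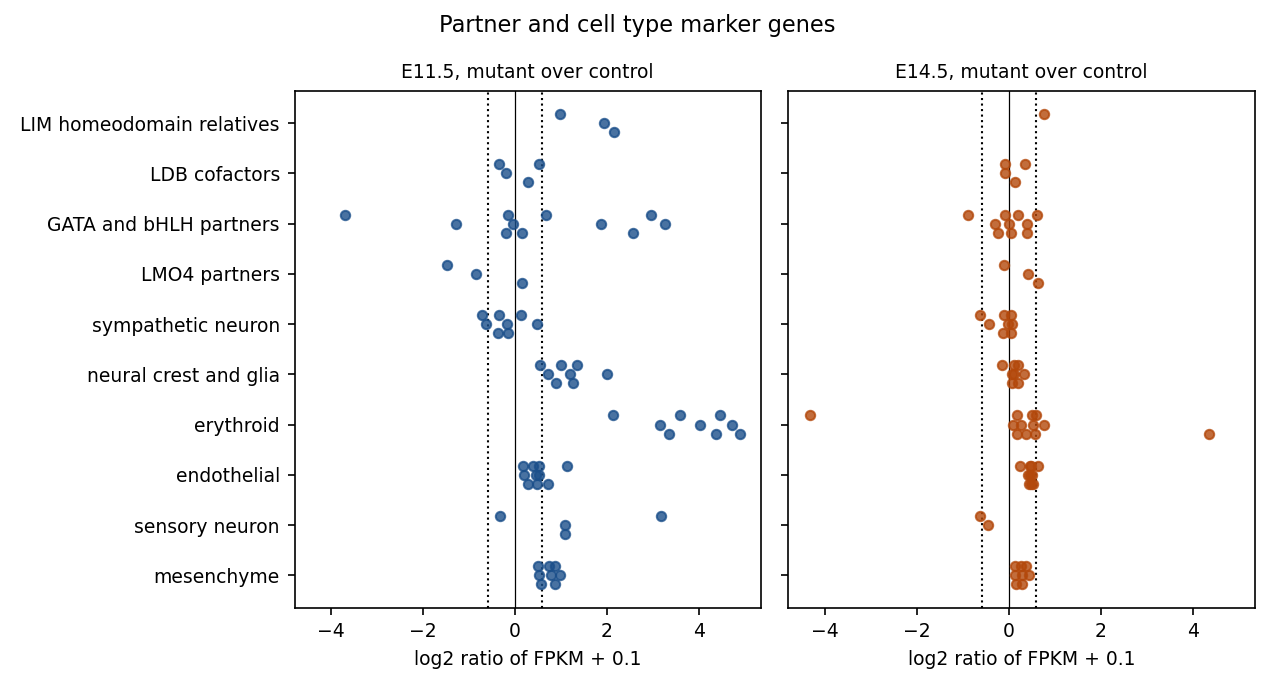
Log2 ratio of FPKM + 0.1, mutant over control, for each listed gene of the partner and cell type marker lists at the 2 stages, 1 point per gene, with dotted lines at 1.5-fold; no motor neuron gene was listed, and *Hbb-y*, listed at 0 in CKO ganglia, is not drawn. At E11.5, 9 of 10 erythroid and 7 of 8 neural crest and glial genes lie to the right of the threshold, beside 18.9% of all genes. So do 5 of 8 mesenchyme, 3 of 4 sensory neuron and 2 of 10 endothelial genes. The 3 sensory neuron genes were listed only through the CKO column. The 4 LDB cofactors lie within the threshold at both stages.

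Genes with a pattern like that of *Isl1* were sought among 8583 other genes that reached 5 FPKM in all 4 columns. Likeness was the Euclidean distance between the pairs of log2 ratios at the 2 stages, which rests on 4 pooled values per gene. The nearest were *Mir568*, a microRNA gene (distance 0.34), *Gch1*, which encodes the first enzyme of tetrahydrobiopterin synthesis (0.39), *Gm7120* (0.42), *Fam102b* (0.48), and *Elavl2*, a neuronal RNA-binding gene (0.51). *Gch1* was at 46.6 FPKM in control and at 13.2 in CKO ganglia, and 83.8 in wildtype and 56.0 in hypomorphic ganglia. *Elavl2* had 124 and 44.8 FPKM at E11.5 and 118 and 81.6 at E14.5. Among 8584 such genes, none came as near to *Lmo1*, which was itself under this limit in CKO ganglia (4.23 FPKM). Genes that low in CKO ganglia were left out of the search, so nearer ones may have been missed. Its 5 nearest were *Snord22* (0.86), *Mir6991* (0.89), *Tfap2b* (1.23), *Rapgef5* (1.27), and *Ccnd1* (1.27). *Mir568*, *Snord22*, and *Mir6991* are entries of short RNAs. Their FPKM is scaled by a short length and comes from polyA libraries, so it is uncertain. Whether it stems from longer transcripts that overlap them was not tested. *Tfap2b*, an AP-2 factor gene, was at 70.0 FPKM in control and at 11.6 in CKO ganglia but 85.5 in wildtype and 80.2 in hypomorphic ganglia. *Ccnd1*, the cyclin D1 gene, had 831 and 123 FPKM at E11.5 and 782 and 809 at E14.5. *Rapgef5*, which encodes an exchange factor of small GTPases, was lower in both mutants, with 25.2 and 5.62 FPKM at E11.5 and 25.8 and 16.8 at E14.5.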

How the data were processed

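RNA of ganglia from E11.5 control and *Isl1* CKO embryos and from E14.5 wildtype and *Isl1* hypomorphic embryos was sequenced, with 2 libraries per genotype. Per the study's methods, the authors prepared libraries from polyA RNA, aligned reads to mm9 with TopHat and estimated FPKM from uniquely mapped reads with cuffdiff. The submitters' processing notes name Bowtie, TopHat 1.3.1, Cuffdiff 1.3.0 and the fly build dm3 instead, but the tables hold mouse symbols. The deposited FPKM values combine the 2 libraries of a genotype, and 0 genes are below 1 in both genotypes. Spreadsheet dates stand in place of 22 symbols at E11.5 and 23 at E14.5. Depth is unknown, so no interval could be given. The authors' columns of log2 fold changes and p-values hold their own comparisons and were not used.

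The log2 ratios of FPKM + 0.1, counts at 1.5-fold, medians, shares within a column and ranks were computed with Python 3.11.15, numpy 2.4.6, and pandas 2.3.3, and the fold rule was tested on simulated data. The simulation set 2-fold changes in genes of at least 5 FPKM in control ganglia. It checks the computation only, not genes at lower levels or the spread between libraries. Genes of the lists were named at 1.5-fold and 5 FPKM, or as the most abundant gene in control ganglia. *Neurog2*, *Pou4f1*, *Flt1*, *Rlim*, *Lhx3*, *Tcf3*, *Tcf4*, *Tcf12*, and the E14.5 values of genes named for E11.5 were chosen with their values in view. The 5 nearest genes to *Isl1* and *Lmo1* were also named. The members and lists were chosen with earlier results of these data known. Gene positions are from GENCODE M1 on mm9, where primers were matched without mismatch. Proteins were not compared. The values of 1 named sympathetic neuron marker are not reported here.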

Additional observations from a re-analysis of the deposited data

How the results depend on the processing

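The alternatives were a pseudocount of 1 or 0.01, centring on the median of all genes or on the sympathetic neuron markers, rescaling with erythroid and mitochondrial genes left out, thresholds of 2-fold or 1.2-fold, and leaving out genes under 5 FPKM in both genotypes. No value past 1.5-fold changed sign under those run for it. *Isl1* had log2 ratios from -1.96 to -1.47 at E11.5 and from -0.97 to -0.91 at E14.5, *Lmo1* from -3.55 to -3.06 and from -1.09 to -1.03, and *Lmo4* at E11.5 from 0.83 to 1.32. *Ldb2* was the one member whose side of the threshold depended on the scaling, from 0.40 to 0.89 at E11.5 and from 0.49 to 0.60 at E14.5. Among members at E14.5, 1 was higher after centring on the sympathetic neuron markers, where *Ldb2* passed, 2 were higher at 1.2-fold and 1 was lower at 2-fold. The E14.5 count of higher partner genes, 3 as reported, was 0 with a pseudocount of 1, 0 at 2-fold, 7 at 1.2-fold and 1 with the limit of 5 FPKM. The lower ones, 1 as reported, were 0 at 2-fold, 2 at 1.2-fold and 0 with that limit. The higher ones at E11.5 were 4 with it. The E11.5 median of the mesenchyme genes was 0.53 after the rescaling, under the threshold, and that of the endothelial genes 0.73 after centring on the sympathetic neuron markers, above it. The fold threshold and the limit change the counts by construction.

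No paired analysis was possible because the tables hold 1 value per genotype, and for the same reason leaving out a library and the limma fit were not run. Protein identity between members was not run either. The spread between libraries and the read depth are unknown.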
